A study of Mus musculus with 24 samples.

Results

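Dendritic cells grown from mouse bone marrow, wild type (WT) for IRE1α, were compared between 2 stimuli: zymosan and lipopolysaccharide (LPS). The comparison held 8 of the 24 samples of the series, 4 WT samples with zymosan and 4 with LPS, chosen by label alone and not by any measured value. The 4 untreated WT samples gave the baseline, and 4 zymosan and 4 LPS samples labelled KO for IRE1α gave the same comparison in other cells. IRE1α, encoded by Ern1, is a stress sensor of the endoplasmic reticulum that splices Xbp1 mRNA. The labels give no strain, age, dose, duration of stimulation or deletion design. The sample titles attach the treatment to the mice, whereas the extraction protocol describes stimulated cultures. Nothing states whether replicates came from separate mice or cultures, so p-values measure the spread between these samples, which may be technical.

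Zymosan is a particle made from yeast cell walls, rich in beta-glucan and mannan. It is bound by the lectin receptors dectin-1 (Clec7a) and dectin-2 (Clec4n), which signal through Syk and Card9, and by Toll-like receptor TLR2 paired with TLR1 or TLR6. LPS, from the outer membrane of Gram-negative bacteria, is handed by CD14 to TLR4 and MD-2 (Ly96). TLR4 signals from the cell surface through MyD88 and from endosomes through TRIF (Ticam1), and the TRIF arm is known for inducing interferon beta and, through it, interferon-stimulated genes.

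The deposited table held whole counts for 38887 genes, and the 8 libraries had totals of 35810219 to 45720878 counts. In all, 14188 genes had enough counts to be tested. Levels are given as CPM, a gene's count scaled to a common library total. Gene length was not taken out, so levels are compared between samples and not between genes. Sums over marker genes are likewise compared between samples, and members with many counts weigh most in them. The dendritic cell label was checked against marker lists. The summed level of 12 conventional dendritic cell markers was 5804 to 6103 CPM with zymosan and 5855 to 6346 CPM with LPS, but Cd209a, a dendritic cell lectin, had 1 count in each group. The sum hides differences between members. By the test described below, 5 of the 11 tested were higher with zymosan and 3 lower (45.5% and 27.3%, against 24.5% and 21.9% of all genes). When replicates were summed in pairs, these counts were 5 and 0. Markers of granulocytes were also present: 12 neutrophil markers summed to 1983 to 2703 CPM with zymosan and 1815 to 1958 CPM with LPS, and 8 eosinophil markers to 938 to 1271 CPM with zymosan and 995 to 1067 CPM with LPS. Macrophage markers (13 genes, of which Vsig4 had no count in the 8 samples) summed to 2355 to 2627 CPM with zymosan and 2879 to 3056 CPM with LPS. Sums of B cell, T and NK cell and erythroid markers stayed under 3 CPM in all 8 samples. In bulk RNA, fewer cells of a type and less RNA per cell cannot be told apart. Among zymosan samples, replicates 1 and 2 resembled each other, as did 3 and 4: the chi-square per gene was 5.35 and 4.35 within these pairs and 18.1 to 20.6 between them. Among LPS samples replicates 1 and 2 were close (3.45), but 3 and 4 (7.62) differed about as much as samples of different pairs (6.26 to 9.60). In samples labelled KO both groups were closer within pairs than between them. Zymosan samples there had 2.18 and 5.68 within pairs and 13.1 to 16.4 between them. LPS samples had 2.40 and 1.87, and 12.8 to 17.2. Each pair was therefore also summed into 1 library as an alternative, and named genes whose call ended are given with that p.

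The question was which genes dendritic cells express at different levels after a yeast particle and after a bacterial lipid. Of the 14188 genes, 3481 (24.5%) were higher with zymosan than with LPS and 3106 (21.9%) were lower, at a Benjamini-Hochberg adjusted p under 0.05 in edgeR's quasi-likelihood test; such genes are referred to as called. Most differences were small. The median size among called genes was 0.35 on the log2 scale, and 5008 of them were below 1.5-fold. A change above 2-fold was called for 247 genes in each direction (1.74% each). The 4 zymosan samples all lay above the 4 LPS samples for 3138 genes (22.1%) and all below for 2940 (20.7%), so the groups were apart for 42.8% of genes. The median log2 difference over all genes tested was 0.02. With replicate pairs summed, 2280 genes were called higher and 1979 lower. Among the 14188 genes these were 2268 and 1948, fewer than without summing. The counts of list members given below with pairs summed are to be read against these 2 numbers.

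**Figure D1:**
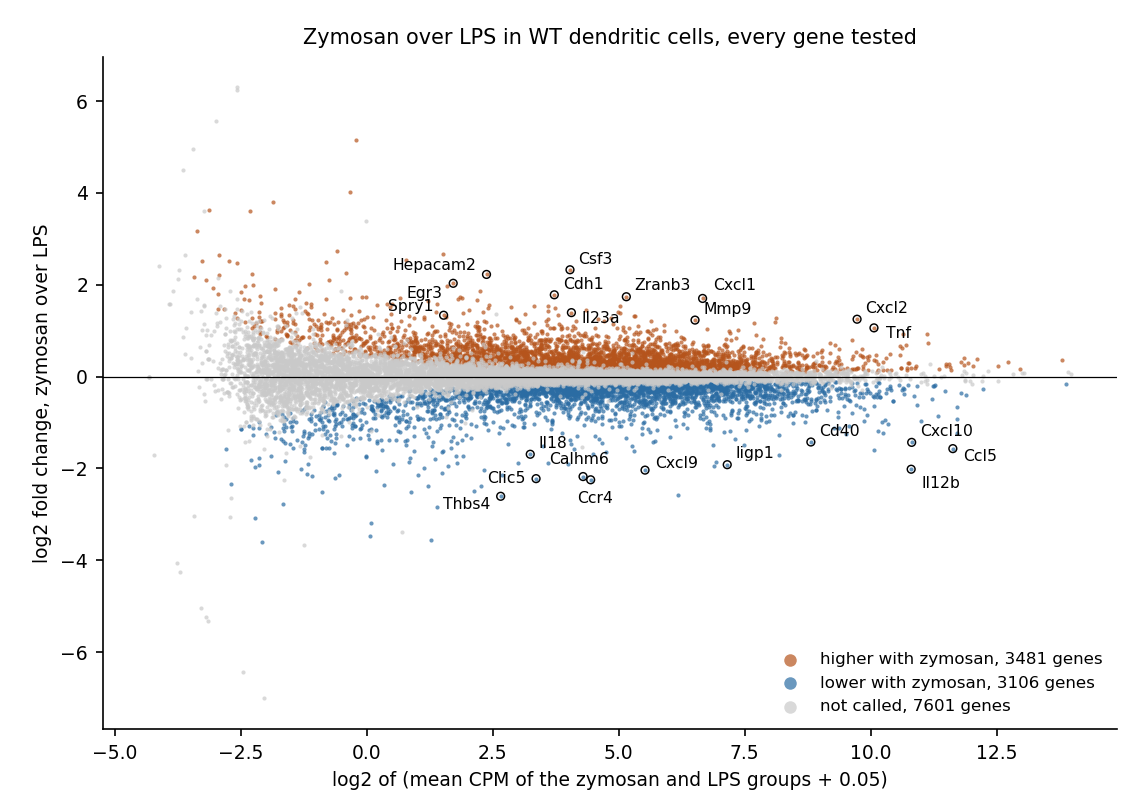
Log2 fold change of zymosan over LPS in WT cells against the log2 mean level in CPM for the 14188 genes tested, with called genes coloured. Csf3, Egr3 and Hepacam2 lie above 2 on the vertical axis and Thbs4, Ccr4, Il12b and Cxcl9 below -2, while most called genes lie within 1 of the line at 0.

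Secreted factors that raise and attract neutrophils were higher with zymosan. Csf3, the gene of granulocyte colony-stimulating factor (ENSMUSG00000038067, chromosome 11, 98701263 to 98703629, plus strand, GRCm38), had 27.8, 26.6, 26.8 and 27.8 CPM in zymosan samples, against 5.36, 4.90, 5.90 and 5.55 CPM in LPS samples and 0.863 to 1.34 CPM in untreated cells. The ranges did not overlap and lay about 5-fold apart (5.02-fold; log2 2.33 ± 0.11 SE, n = 4 each, edgeR adjusted p = 5.4e-14). Cxcl1, a chemokine that draws neutrophils through CXCR2, had 183, 155, 139 and 144 CPM with zymosan, against 46.2, 44.7, 52.2 and 47.6 CPM with LPS (log2 1.70 ± 0.11). Every zymosan sample again exceeded every LPS sample, as it did for Cxcl2 (1136 to 1264 CPM with zymosan, against 461 to 536 CPM with LPS; 2.38-fold) and Cxcl5 (41.6 to 72.0 CPM, against 26.1 to 31.6 CPM; log2 0.94 ± 0.13). Of 6 neutrophil-attracting CXC chemokines tested, 5 were higher (83.3%, against 24.5% of all genes) and none lower, with a median of 0.75. Of these, Cxcl3 (0.26 ± 0.08) and Ppbp (0.57 ± 0.16) lost their call with replicate pairs summed (edgeR adjusted p = 0.12 and 0.11), which left 3. Ppbp, a chemokine stored in platelets, was at 220 and 207 CPM in zymosan replicates 1 and 2 but at 123 and 124 CPM in replicates 3 and 4, against 97.7 to 123 CPM with LPS. The neutrophil marker sum split the zymosan samples in the same way, at 2703 and 2654 CPM in replicates 1 and 2 and at 1983 and 2010 CPM in replicates 3 and 4. So did the sums of eosinophil markers (1234 and 1271, then 938 and 1011 CPM) and of mast cell and basophil markers (198 and 212, then 140 and 148 CPM). The part of those cells in the chemokine results was not tested.

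Growth factors shared this direction: 11 of 18 tested were higher and 3 lower (61.1% and 16.7%, against 24.5% and 21.9% of all genes). Their median was 0.35, and 9 and 0 were called with pairs summed. Csf2, the gene of granulocyte-macrophage colony-stimulating factor, was low, at 0.773 to 1.2 CPM with zymosan and 0.270 to 0.544 CPM with LPS (log2 1.2 ± 0.29, edgeR adjusted p = 0.0015). Ereg, a ligand of the epidermal growth factor receptor, was at 1.76 to 2.41 CPM with zymosan and 0.616 to 0.777 CPM with LPS. Inhba, the activin A subunit, Vegfa, an inducer of blood vessels, and Pdgfb were higher by 0.54 ± 0.11, 0.45 ± 0.06 and 0.68 ± 0.07. Lif, a cytokine of the interleukin 6 family, was at 32.5 to 42.1 CPM with zymosan and 15.3 to 17.0 CPM with LPS (log2 1.21 ± 0.11). The groups did not overlap for any of these genes.

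The cytokines that steer T cells split. Il23a encodes the p19 chain that pairs with p40 (Il12b) to make IL-23, which sustains Th17 cells, whereas p35 (Il12a) pairs with p40 to make IL-12, which drives Th1 cells. Il23a had 29.8, 24.7, 20.6 and 21.5 CPM with zymosan, against 7.49, 8.78, 10.2 and 10.2 CPM with LPS. These did not overlap (log2 1.39 ± 0.11, edgeR adjusted p = 2.2e-10). Il12b (ENSMUSG00000004296, chromosome 11, 44400063 to 44414033, plus strand) went the other way, with 732, 789, 631 and 679 CPM with zymosan, against 2737, 2980, 2971 and 2767 CPM with LPS and 2.24 to 2.90 CPM in untreated cells. The highest zymosan sample stood far below the lowest LPS sample (log2 -2.02 ± 0.08, edgeR adjusted p = 1.8e-15). Il27 and Ebi3, the subunits of IL-27, were lower at -0.94 ± 0.09 and -0.51 ± 0.06. Il12a differed little (17.7 to 21.4 CPM with zymosan, against 21.1 to 24.1 CPM with LPS; log2 -0.19 ± 0.08, edgeR adjusted p = 0.047), with overlapping groups. That call ended with pairs summed (0.28) and without LPS replicate 1, 3 or 4 or zymosan replicate 3 or 4 (0.055 to 0.16). Il18 and Il15, which activate NK and memory T cells, were at 4.03 to 5.11 and 23.6 to 27.2 CPM with zymosan, against 13.7 to 14.8 and 46.4 to 54.0 CPM with LPS.

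Not all inflammatory cytokines separated the stimuli. Tnf, the tumour necrosis factor gene, had 1442, 1375, 1431 and 1543 CPM with zymosan, against 656, 628, 722 and 769 CPM with LPS and 182 to 207 CPM in untreated cells. The ranges were apart (log2 1.06 ± 0.07, edgeR adjusted p = 2.5e-11). Il6, a driver of the acute phase response, had 592, 571, 524 and 551 CPM with zymosan and 516, 517, 604 and 593 CPM with LPS. Its groups overlapped (log2 0.00 ± 0.09, edgeR adjusted p = 0.97). The replicate pairs were called in opposite directions, at 0.17 from replicates 1 and 2 and -0.17 from replicates 3 and 4 (edgeR adjusted p = 0.0016 and 0.024). Il1b, at 5640 to 5738 CPM with zymosan and 5718 to 6367 CPM with LPS, and Il10, the anti-inflammatory cytokine, at 12.5 to 15.2 and 13.8 to 16 CPM, also overlapped (log2 -0.09 ± 0.05 and -0.03 ± 0.09). Among tumour necrosis factor family ligands, 6 of 12 were higher and 3 lower (50% and 25%, against 24.5% and 21.9% of all genes). With pairs summed 6 and 2 were called. Tnfsf15, the ligand of death receptor DR3, was at 0.76 ± 0.17 and Tnfsf10, the death ligand TRAIL, at -1.50 ± 0.11. Tnfsf10 had 16.4, 21.5, 19.8 and 21.7 CPM with zymosan, against 60.1, 49.9, 57.7 and 58.0 CPM with LPS.

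Chemokines that recruit T cells, NK cells and monocytes divided. The ligands of CXCR3, the receptor of Th1 cells, were all lower with zymosan (3 of 3, against 21.9% of all genes), with a median of -1.44. Cxcl9 had 14.6, 18.3, 18.3 and 20.6 CPM with zymosan, against 72.0, 77.4, 73.9 and 72.2 CPM with LPS. Cxcl10 had 923, 1146, 863 and 958 CPM with zymosan, against 2489, 2250, 2722 and 3033 CPM with LPS. Neither gene showed any overlap (log2 -2.04 ± 0.11 and -1.43 ± 0.19, edgeR adjusted p = 3.5e-13 and 9e-07), and Cxcl11 was at -1.44 ± 0.12. Ccl5, a chemokine for T cells and monocytes, had 1507, 1816, 1444 and 1623 CPM with zymosan, against 4861, 4636, 4464 and 4989 CPM with LPS (log2 -1.57 ± 0.09). Of 14 other chemokines, Ccl5 included, 5 were higher and 3 lower (35.7% and 21.4%, against 24.5% and 21.9% of all genes; median 0.08), and 3 and 3 with pairs summed, so the list as a whole was near the background. Ccl4, which draws monocytes and T cells, was higher at 0.66 ± 0.07, and Cxcl16 and Ccl22 were lower at -0.62 ± 0.07 and -0.36 ± 0.06.

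**Figure D2:**
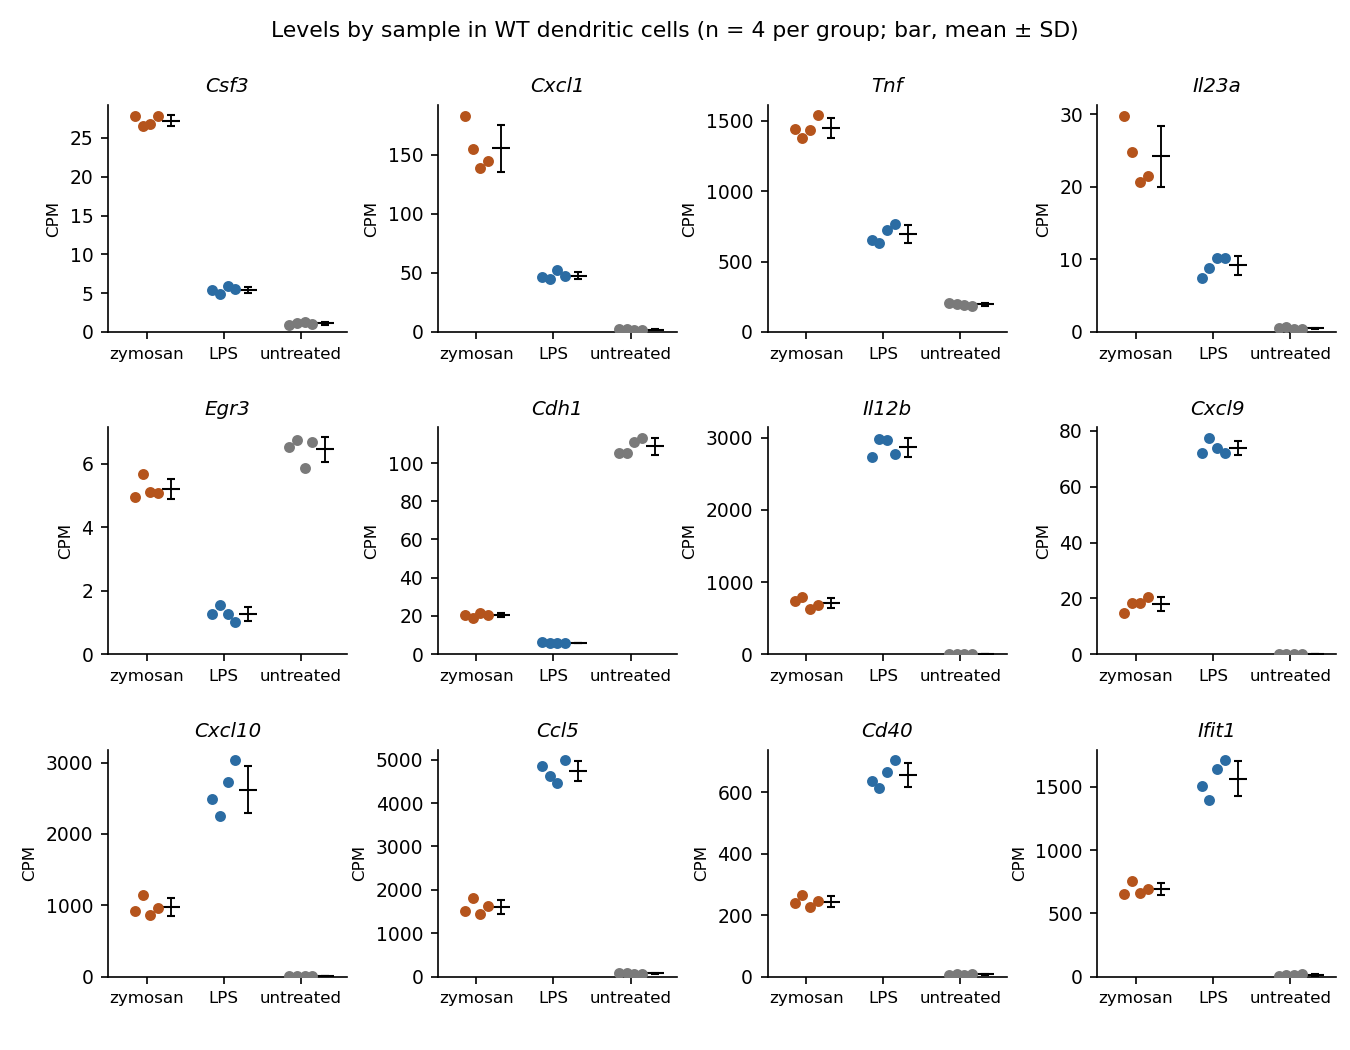
CPM of 12 genes in the 4 zymosan, 4 LPS and 4 untreated WT samples, 1 point per sample, with the mean and SD beside the points. In every panel the zymosan and LPS points are separate, and for Egr3 and Cdh1 the LPS samples lie below both other groups.

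Genes induced by interferon were lower with zymosan without exception in the lists examined. All 30 antiviral interferon-stimulated genes were called lower (median -0.70, against 21.9% called lower and a median of 0.02 over all genes), and so were all 14 guanylate-binding protein and immunity-related GTPase genes (median -0.98), which attack the vacuoles of intracellular pathogens. In every gene of both lists the zymosan samples all lay below the LPS samples, against 20.7% of all genes. With pairs summed 25 antiviral and 14 GTPase genes were called lower, against 1948 of the 14188 genes tested. In the examples given next, zymosan samples were also far above untreated ones. Ifit1, which binds viral RNA, had 655, 757, 660 and 696 CPM with zymosan, against 1503, 1400, 1642 and 1710 CPM with LPS and 7.21 to 19.6 CPM in untreated cells. Iigp1, a GTPase acting on Toxoplasma vacuoles, had 46.5, 57.3, 63.7 and 70.6 CPM with zymosan, against 236, 197, 234 and 234 CPM with LPS and 0.398 to 0.843 CPM in untreated cells. The differences between stimuli ran from Cmpk2 (-1.59 ± 0.20) to Eif2ak2 (-0.23 ± 0.07) in the antiviral list and from Iigp1 (-1.92 ± 0.15) to Gbp7 (-0.51 ± 0.09) among the GTPases. Eif2ak2, a kinase that senses double-stranded RNA, lost its call with pairs summed (edgeR adjusted p = 0.12).

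The promoters of these genes were read from RefSeq (GRCm38.p6), because a short element, the letters GAAA, any 2 bases and GAAA again, is the core of the site bound by the interferon-activated factor ISGF3 and by interferon regulatory factors. The 250 bases before the annotated start are shown, 5′ to 3′ on the gene's strand, with this element, or its reverse complement, in capitals. They are given for Cxcl10 (chr5:92348890-92349139, minus strand), Ifit1 (chr19:34640639-34640888, plus strand), Ifit3 (chr19:34583279-34583528, plus strand) and Irgm2 (chr11:58214727-58214976, plus strand), a GTPase gene, all lower with zymosan, and for Cxcl1 (chr5:90890995-90891244, plus strand), higher with zymosan.
Cxcl10: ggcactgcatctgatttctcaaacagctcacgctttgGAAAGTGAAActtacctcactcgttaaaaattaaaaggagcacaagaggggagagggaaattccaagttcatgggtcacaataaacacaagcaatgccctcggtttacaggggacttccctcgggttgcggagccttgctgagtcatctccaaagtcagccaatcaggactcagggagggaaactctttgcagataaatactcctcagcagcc
Ifit1: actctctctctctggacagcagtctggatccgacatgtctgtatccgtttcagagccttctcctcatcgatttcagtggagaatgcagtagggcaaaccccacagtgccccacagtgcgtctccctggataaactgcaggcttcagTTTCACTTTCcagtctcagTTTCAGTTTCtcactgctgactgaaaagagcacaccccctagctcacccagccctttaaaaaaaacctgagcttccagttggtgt
Ifit3: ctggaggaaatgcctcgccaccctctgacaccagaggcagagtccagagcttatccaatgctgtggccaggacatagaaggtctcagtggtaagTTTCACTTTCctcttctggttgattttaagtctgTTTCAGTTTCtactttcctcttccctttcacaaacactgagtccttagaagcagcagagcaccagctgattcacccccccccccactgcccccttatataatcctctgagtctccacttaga
Irgm2: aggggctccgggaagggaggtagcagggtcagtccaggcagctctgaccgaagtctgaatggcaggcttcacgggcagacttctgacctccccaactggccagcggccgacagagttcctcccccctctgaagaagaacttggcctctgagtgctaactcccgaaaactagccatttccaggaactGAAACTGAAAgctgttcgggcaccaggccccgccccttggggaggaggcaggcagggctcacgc
Cxcl1: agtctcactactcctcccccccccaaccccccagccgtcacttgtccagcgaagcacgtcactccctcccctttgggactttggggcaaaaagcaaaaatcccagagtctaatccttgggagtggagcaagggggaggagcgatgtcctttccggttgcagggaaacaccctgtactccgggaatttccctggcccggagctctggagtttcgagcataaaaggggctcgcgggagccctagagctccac
Ifit1 and Ifit3 each carried the element 2 times, Cxcl10 and Irgm2 1 time, and the Cxcl1 window did not hold these letters. It was searched on both strands in windows of 250 bases before to 50 after the start. Among genes called and above 2-fold lower with zymosan, 26 of 158 windows held it (16.5%), against 4 of 159 (2.52%) among those above 2-fold higher, 348 of 10444 (3.33%) among all genes tested and 943 of 27025 (3.49%) among all promoters. The antiviral list held it in 13 of 23 windows (56.5%) and the GTPase list in 9 of 9. TGACGTCA, the site of CREB, was in 3 of 158 windows of the genes lower with zymosan (1.90%) and 2 of 159 of those higher (1.26%). It was in 332 of 10444 windows of all genes tested (3.18%). The CArG box, the site of serum response factor, was in 3 of 158 (1.9%), 2 of 159 (1.26%) and 130 of 10444 (1.24%), in the same order. A match is a description of the letters and not of binding.

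Interferon genes themselves were near the detection limit. Ifnb1, encoding interferon beta, had 1.17, 0.876, 1.14 and 0.990 CPM with zymosan, against 0.719, 0.616, 0.751 and 0.816 CPM with LPS. Every zymosan sample was above every LPS sample, but the difference was not called (log2 0.52 ± 0.22, edgeR adjusted p = 0.061), and untreated cells had at most 0.0383 CPM. Of 6 interferon and interferon receptor genes tested, 2 were higher and 3 lower (33.3% and 50%, against 24.5% and 21.9% of all genes). With pairs summed 2 and 2 were called. Of the receptor chains, Ifnar2 and Ifngr2 were lower with zymosan (-0.42 ± 0.04 and -0.41 ± 0.04), and Ifngr1 (0.51 ± 0.05) and Ifnlr1 were higher. The factors that act behind them were mainly lower: 13 of 19 IRF, STAT and BATF genes were lower and 3 higher. These are 68.4% and 15.8%, against 21.9% and 24.5% of all genes. The median was -0.35, and 10 and 3 were called with pairs summed. Irf7, the amplifier of type I interferon, had 561, 684, 623 and 672 CPM with zymosan, against 1358, 1195, 1125 and 1253 CPM with LPS (log2 -0.96 ± 0.15). Batf, which works with Irf4 and Irf8, was at 24.2 to 32.6 CPM with zymosan and 71.6 to 77.8 CPM with LPS (log2 -1.43 ± 0.08). Stat2, Stat3, Irf1 and Irf8 were lower at -0.58 to -0.36, whereas Irf4 (0.48 ± 0.06) and Stat4 (0.47 ± 0.10) were higher.

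Antigen presentation split by class. For MHC class I, which shows peptides to CD8 T cells, 15 of 16 genes of the molecule, its transporter and the immunoproteasome were lower with zymosan. That is 93.8%, against 21.9% of all genes. The median was -0.49, and the same number was called with pairs summed. Psmb10, an immunoproteasome subunit, had 177, 196, 193 and 208 CPM with zymosan, against 358, 330, 337 and 363 CPM with LPS (log2 -0.84 ± 0.06). Tap1, Tap2 and H2-K1 were lower at -0.56 ± 0.05, -0.59 ± 0.04 and -0.49 ± 0.06. The exception was Erap1, a peptide-trimming enzyme, whose groups overlapped (log2 -0.10 ± 0.05, edgeR adjusted p = 0.13). Of 13 MHC class II genes, 2 were higher and 2 lower (median -0.04), a smaller share each way than over all genes, and 1 and 0 with pairs summed. Cd74, the invariant chain, was one that lost its call (log2 -0.20, edgeR adjusted p = 0.056 with pairs summed). Of 17 costimulatory and checkpoint genes, 13 were lower and 1 higher (76.5% and 5.88%, against 21.9% and 24.5% of all genes). Their median was -0.36, and 11 and 0 were called with pairs summed. Cd40, the receptor for help from T cells, had 240, 266, 225 and 245 CPM with zymosan, against 636, 615, 665 and 704 CPM with LPS and 6.21 to 7.16 CPM in untreated cells. That is a 2.68-fold higher level in LPS samples (log2 -1.42 ± 0.08, edgeR adjusted p = 6e-13). Il15ra, which presents IL-15, was lower at -1.08 ± 0.05 and Cd274, the checkpoint ligand PD-L1, by -0.32 ± 0.04. Cd86, a ligand of CD28, overlapped (log2 -0.16 ± 0.07, edgeR adjusted p = 0.065). Ido2, a tryptophan-degrading enzyme, was at 0.338 to 0.460 CPM with zymosan and 1.79 to 2.20 CPM with LPS.

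**Figure D3:**
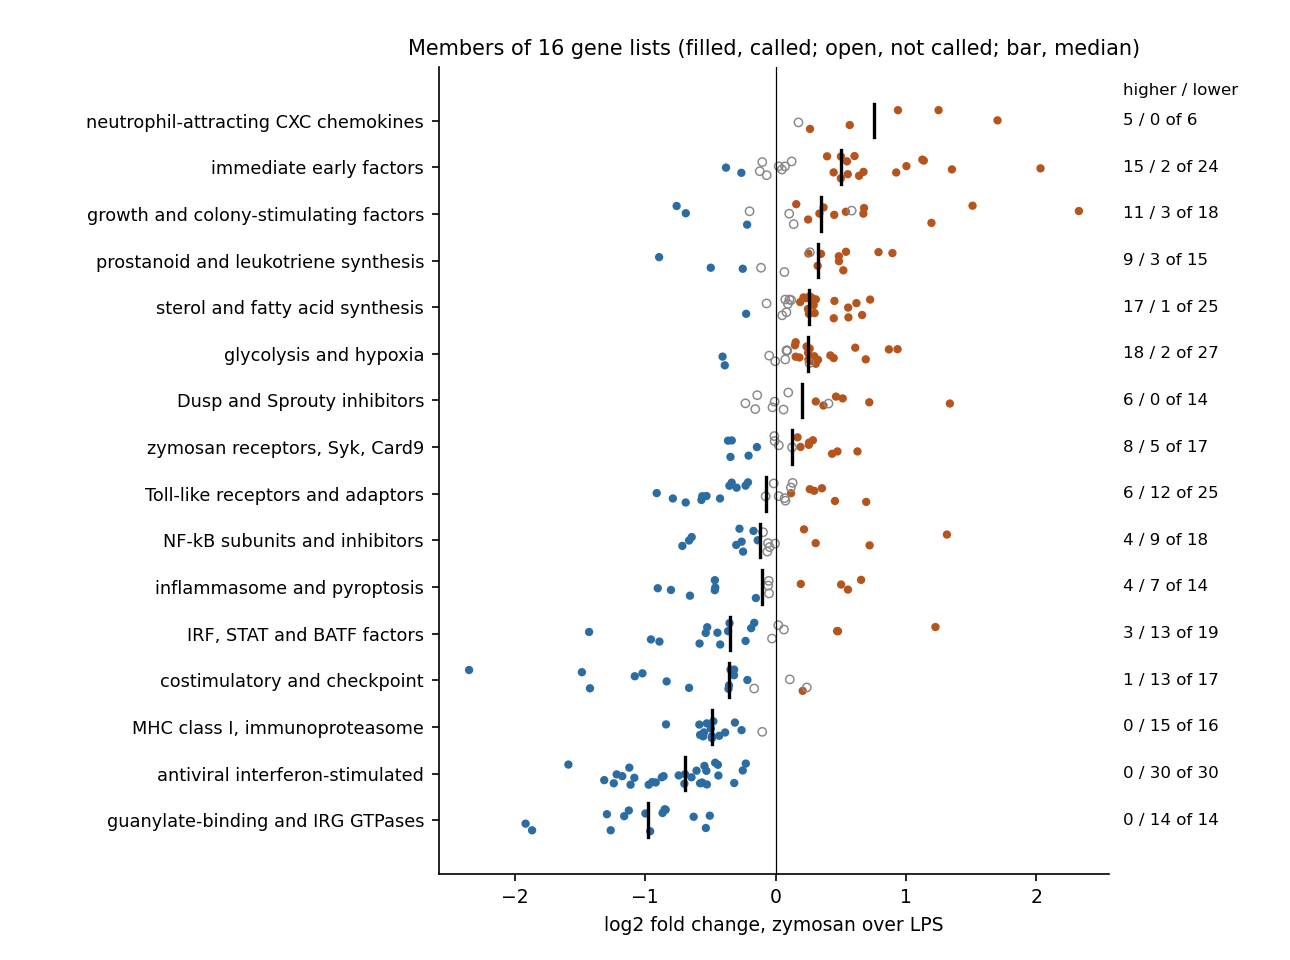
Log2 fold change of zymosan over LPS for each tested member of 16 gene lists, with the median of each list as a bar and the numbers called higher and lower at the right. The interferon-stimulated and GTPase lists lie wholly below 0, while the CXC chemokine and Sprouty lists hold no gene called lower.

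The receptors for each stimulus were themselves compared. Of 17 genes of zymosan receptors and the Syk-Card9 pathway, 8 were higher with zymosan and 5 lower. These are 47.1% and 29.4%, against 24.5% and 21.9% of all genes. The median was 0.13, and 5 and 3 were called with pairs summed. Clec4n had 1942, 1888, 1894 and 1948 CPM with zymosan, against 1225, 1244, 1279 and 1217 CPM with LPS and 1583 to 1788 CPM in untreated cells (log2 0.63 ± 0.05). Clec7a had 986, 938, 1069 and 1100 CPM with zymosan, against 732, 711, 795 and 707 CPM with LPS. Both genes were without overlap, but the Clec7a difference (0.47 ± 0.12, edgeR adjusted p = 0.0016) was not called with pairs summed (0.062). Syk was higher by 0.29 ± 0.04 and Fcer1g, the adaptor chain of dectin-2, lower by -0.37 ± 0.04. Of 25 Toll-like receptor genes and adaptors, 6 were higher, a share close to that of all genes (24%, against 24.5%), and 12 were lower (48%, against 21.9%; median -0.08), and 5 and 10 with pairs summed. Tlr4 and Cd14, the LPS receptor genes, were higher with zymosan than with LPS: Tlr4 had 182, 161, 171 and 156 CPM with zymosan, against 102, 105, 109 and 98.1 CPM with LPS and 137 to 159 CPM in untreated cells (log2 0.69 ± 0.06). Cd14 was at 0.46 ± 0.07. Tlr1 and Tlr6, the partners of Tlr2, were lower (-0.79 ± 0.04 and -0.53 ± 0.05), as was the RNA sensor Tlr3 (-0.91 ± 0.11). Tlr2 was not called (573 to 621 CPM with zymosan, against 516 to 572 CPM with LPS; log2 0.12 ± 0.07, edgeR adjusted p = 0.20). Myd88 and Ticam1 were lower at -0.35 ± 0.07 and -0.34 ± 0.05, and Ticam2, the bridging adaptor of the TRIF arm, was higher by 0.30 ± 0.04.

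Transcription factors of the immediate early class, which answer receptor signals within minutes, were mainly higher with zymosan (15 of 24, with 2 lower). These are 62.5% and 8.33%, against 24.5% and 21.9% of all genes. The median was 0.50, and 14 and 2 were called with pairs summed. Egr3 had 4.97, 5.68, 5.11 and 5.07 CPM with zymosan, against 1.26, 1.55, 1.27 and 1.01 CPM with LPS and 5.88 to 6.76 CPM in untreated cells. The zymosan level was about 4-fold the LPS level (4.09-fold; log2 2.03 ± 0.14, edgeR adjusted p = 1.9e-11). Fos, an AP-1 subunit, had 15.3, 15.6, 16.5 and 17.4 CPM with zymosan, against 7.73, 7.87, 6.70 and 7.45 CPM with LPS and 22 to 23.2 CPM in untreated cells. For Egr3 and Fos the order was thus LPS lowest, zymosan next and untreated highest, with no overlap between groups. Egr1 (1.14 ± 0.12), Fosl1 (1.00 ± 0.11), Maff (0.92 ± 0.06), Nr4a1 (0.64 ± 0.10) and Nr4a3 (0.55 ± 0.05) were higher, and Fosb was too, at a low level (0.338 to 0.595 CPM, against 0.120 to 0.214 CPM). Atf3 (-0.26 ± 0.05) and Ier5 (-0.38 ± 0.05) were the 2 that were lower. Among 14 Dusp, Spry and Spred genes, which damp MAP kinase signals, 6 were higher (42.9%, against 24.5% of all genes) and none lower. They were led by Spry1 (1.34 ± 0.17), Dusp3 (0.72 ± 0.06) and Dusp6 (0.51 ± 0.05). NFAT genes Nfatc1 and Nfatc2 were higher (0.47 ± 0.07 and 0.55 ± 0.09), while Rcan1, a calcineurin inhibitor whose transcription NFAT drives, had 11.1, 11.9, 10.9 and 10.9 CPM with zymosan, against 20.8, 20.7, 21.0 and 21.8 CPM with LPS (log2 -0.91 ± 0.06).

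Of 18 NF-kB genes, 4 were higher (22.2%, near the 24.5% of all genes) and 9 lower (50%, against 21.9%). Their median was -0.12, and 4 and 7 were called with pairs summed. Nfkbid, a nuclear IkB protein, had 58.0, 57.7, 54.5 and 55.1 CPM with zymosan, against 22.3, 22.5, 21.9 and 23.9 CPM with LPS (log2 1.31 ± 0.06). Nfkbiz, a nuclear IkB needed for Il6 induction, and Rel were also higher (0.72 ± 0.06 and 0.31 ± 0.06). Nfkb2, Traf2 and Nfkbib, which belong to or restrain the pathway, were lower (-0.64 ± 0.04, -0.72 ± 0.04 and -0.66 ± 0.05). Of 15 feedback inhibitor genes, 3 were higher and 5 lower (20% and 33.3%, against 24.5% and 21.9% of all genes). Their median was -0.02, and 3 and 3 were called with pairs summed. The cytokine-signalling inhibitors Socs1 and Socs3 were lower at -0.75 ± 0.12 and -0.36 ± 0.05, while another gene of the Socs family was higher.

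Of 14 inflammasome and pyroptosis genes, 4 were higher (28.6%, near the 24.5% of all genes) and 7 lower (50%, against 21.9%). Their median was -0.10. With pairs summed 2 were higher and 6 lower, and 2 were also higher without zymosan replicate 3. Nlrp3, a sensor of cell damage, was at 366 to 430 CPM with zymosan and 258 to 303 CPM with LPS (log2 0.50 ± 0.06). Casp1, which cleaves pro-IL-1 beta and pro-IL-18, had 153, 168, 152 and 158 CPM with zymosan, against 299, 280, 310 and 292 CPM with LPS (log2 -0.90 ± 0.08). Casp4, the LPS-binding caspase called caspase-11 in mice, and Gsdmd, the pore former, were lower as well (-0.80 ± 0.08 and -0.66 ± 0.04). Ripk3, a kinase of necroptosis, was higher (0.55).

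Of 13 genes of arginine, nitric oxide and itaconate metabolism, 6 were higher with zymosan and 2 lower. These are 46.2% and 15.4%, against 24.5% and 21.9% of all genes, with a median of 0.16. Arginine is used by Arg1 and Arg2 to make ornithine and by Nos2 to make nitric oxide. Arg1 had 3081, 3041, 2553 and 2558 CPM with zymosan, against 1691, 1717, 1687 and 1645 CPM with LPS. The untreated samples, at 2558 to 3113 CPM, overlapped the zymosan samples. Nos2 had 2398, 2722, 2516 and 2717 CPM with zymosan, against 4108, 3979, 3963 and 4427 CPM with LPS and 158 to 221 CPM in untreated cells. The groups did not overlap for either gene (log2 0.74 ± 0.08 and -0.67 ± 0.08, edgeR adjusted p = 7.7e-08 and 1.2e-07). Arg2 and Odc1, the ornithine decarboxylase gene, were also higher (0.82 ± 0.10 and 0.47 ± 0.05). Acod1, which makes itaconate, overlapped (log2 -0.10 ± 0.08, edgeR adjusted p = 0.33).

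Among 15 lipid mediator genes, zymosan gave the higher level for 9 and the lower for 3 (60% and 20%, against 24.5% and 21.9% of all genes). The median was 0.32, and 8 and 3 were called with pairs summed. Alox5, its partner Alox5ap and Lta4h, which together make leukotriene B4, were higher by 0.79 ± 0.09, 0.54 ± 0.06 and 0.49 ± 0.06, and each was below its untreated level in both stimulated groups. Alox5, for example, was at 38.8 to 48.9 CPM with zymosan, 23.8 to 27.5 CPM with LPS and 88.3 to 104 CPM in untreated cells. Ptgs1, the constitutive cyclooxygenase, followed that order with 61.9 to 70.7, 33.2 to 37.1 and 210 to 233 CPM (log2 0.90 ± 0.07). The inducible enzymes of prostaglandin E2 synthesis were modestly higher: Ptgs2 had 1489, 1456, 1630 and 1654 CPM with zymosan, against 1032, 1039, 1227 and 1154 CPM with LPS (log2 0.48 ± 0.10), and Ptges was at 0.35 ± 0.07. Pla2g4a, which frees arachidonic acid, was lower at -0.25 ± 0.06. Tbxas1, the thromboxane synthase, was higher by 0.52 ± 0.04.

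Zymosan samples were also higher for 17 of 25 sterol and fatty acid synthesis genes, and lower for 1 (68% and 4%, against 24.5% and 21.9% of all genes). The median was 0.26, and 15 and 0 were called with pairs summed. Scd2, a fatty acid desaturase, was at 714 to 761 CPM with zymosan, 411 to 473 CPM with LPS and 1323 to 1373 CPM in untreated cells (log2 0.72 ± 0.05). Genes of cholesterol efflux and oxysterols leaned the other way. Of 12, 3 were higher (25%, near the 24.5% of all genes) and 7 lower (58.3%, against 21.9%). The median was -0.28, and 2 and 6 were called with pairs summed. Ch25h, which makes 25-hydroxycholesterol and is itself interferon-induced, was at 49.7 to 87.5 CPM with zymosan and 142 to 175 CPM with LPS (log2 -1.17 ± 0.17), and Nr1h3, the receptor LXR alpha, was lower at -0.96 ± 0.11. Abca1, the cholesterol exporter, was higher by 0.47 ± 0.06. Glycolysis and hypoxia genes counted 18 higher and 2 lower among 27 (66.7% and 7.41%, against 24.5% and 21.9% of all genes). The median was 0.25, and 12 and 2 were called with pairs summed. Ero1l, a hypoxia-responsive oxidase of the endoplasmic reticulum, had 2175, 2087, 2092 and 2077 CPM with zymosan, against 1068, 1088, 1154 and 1098 CPM with LPS (log2 0.94 ± 0.06). Egln3, the oxygen sensor PHD3, and Gpi1, a glycolytic enzyme, were higher (0.61 ± 0.08 and 0.69 ± 0.07), and Pfkfb3, which activates glycolysis, was lower (-0.41 ± 0.07). Slc2a3, a glucose transporter, was called (0.87 ± 0.21) but not with pairs summed (edgeR adjusted p = 0.051). Its level was 86.6 and 90.4 CPM in zymosan replicates 1 and 2 and 52.1 and 53.3 CPM in replicates 3 and 4, against 36.4 to 40.7 CPM with LPS. Zymosan replicates 1 and 2 had the higher marker sums of neutrophils, of eosinophils, and of mast cells and basophils. The part of such cells in the Slc2a3 level was not tested.

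Of 21 genes of adhesion and migration, 7 were higher and 7 lower (33.3% each, against 24.5% and 21.9% of all genes; median 0.12), and 6 and 3 with pairs summed. Cdh1, the gene of E-cadherin, which holds immature dendritic cells together, had 20.3, 19.2, 21.5 and 20.6 CPM with zymosan, against 6.17, 5.70, 5.98 and 5.88 CPM with LPS and 105 to 113 CPM in untreated cells. Both stimulated groups were thus far below baseline, with LPS the lower (log2 1.78 ± 0.07, edgeR adjusted p = 3.1e-15). Ccr2, the receptor of inflammatory monocytes, had 412, 383, 378 and 359 CPM with zymosan, against 160, 163, 187 and 165 CPM with LPS and 625 to 660 CPM in untreated cells. Cxcr4, the receptor of Cxcl12, was ordered in the same way (0.90 ± 0.08). Fscn1, the actin bundler of mature dendritic cells, was lower with zymosan (-0.36 ± 0.07). Ccr7, the lymph node homing receptor, had 332, 332, 244 and 262 CPM with zymosan, against 331, 336, 346 and 375 CPM with LPS (log2 -0.25 ± 0.08, edgeR adjusted p = 0.015). Its groups overlapped, and the call ended with pairs summed (0.17) and without LPS replicate 4 or zymosan replicate 3 or 4 (0.059 to 0.081). Mmp9, a gelatinase also stored by neutrophils, was higher (103 to 154 CPM with zymosan, against 51.8 to 56.3 CPM with LPS; log2 1.23 ± 0.16), and so was Il1r2, a decoy receptor, which was at 116 and 128 CPM in zymosan replicates 1 and 2 and at 75.6 and 80.0 CPM in replicates 3 and 4. Marker sums of neutrophils, of eosinophils, and of mast cells and basophils were also higher in zymosan replicates 1 and 2. The part of such cells was not tested.

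Macrophage markers were mostly lower with zymosan in WT, in 7 of 12 cases against 2 higher (58.3% and 16.7%, against 21.9% and 24.5% of all genes). The median was -0.29, and 6 and 2 were called with pairs summed. In samples labelled KO 2 of the 12 were lower and 5 higher (median 0.12), against 20% and 22.7% of all genes there. The difference between the labels was called for 4 of the 12, each with a lower log2 value in WT, against 0.839% of all genes. With pairs summed that difference was called for 0 genes at all. Marco, a scavenger receptor, had 246, 256, 223 and 212 CPM with zymosan, against 454, 487, 475 and 465 CPM with LPS (log2 -1.01 ± 0.06). The Fc receptor gene Fcgr1 and the complement genes C1qa, C1qb and C1qc were lower (-0.85 ± 0.13, -0.46 ± 0.09, -0.45 ± 0.07 and -0.43 ± 0.09), while Csf1r was higher (0.37 ± 0.05). The summed level of 7 plasmacytoid dendritic cell markers was 685 to 740 CPM with zymosan and 966 to 1088 CPM with LPS. Most of it was Bst2, which is also interferon-induced, and the defining marker Siglech had 3 and 4 counts in the 4 zymosan and the 4 LPS samples. The summed level of 9 mast cell and basophil markers was 140 to 212 CPM with zymosan and 253 to 275 CPM with LPS. Most of that was Hdc, the histamine-making enzyme (93.9 to 138 CPM with zymosan, against 206 to 229 CPM with LPS), and Mcpt4 had no count.

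The largest differences, among genes at 5 CPM or more and without overlap of zymosan and LPS samples, lay outside these lists in part. Thbs4, a thrombospondin of the extracellular matrix, had 1.75, 1.78, 1.59 and 1.93 CPM with zymosan, against 11.2, 10.4, 9.97 and 11.5 CPM with LPS (log2 -2.61 ± 0.11, edgeR adjusted p = 1.3e-14). Ccr4, a receptor for Ccl17 and Ccl22, was at 5.92 to 8.91 CPM with zymosan and 34.3 to 37.0 CPM with LPS (log2 -2.25 ± 0.10). Clic5 (-2.22 ± 0.13), Calhm6 (-2.18 ± 0.11), the heat shock gene Hspa1b (-1.95 ± 0.13) and the membrane-bound transcription factor gene Creb3l1 (-1.90 ± 0.06) were also lower, and so was U90926, at 16.6 to 26.1 CPM with zymosan and 117 to 130 CPM with LPS. On the other side stood Hepacam2 (2.23 ± 0.17), the DNA repair gene Zranb3 (1.74 ± 0.15), the potassium channel gene Kcnj2 (1.56 ± 0.10), Agap1 (1.53 ± 0.08), the sialyltransferase gene St6gal1 (1.53 ± 0.18) and the creatine kinase gene Ckb (1.49 ± 0.12). Cacna1b, a calcium channel gene, was higher too (1.51; 8.52 to 13.1 CPM with zymosan, against 3.44 to 3.94 CPM with LPS), and lay above its untreated level of 5.50 to 7.16 CPM. In zymosan samples Agap1 overlapped its untreated level, and Hepacam2, Zranb3, Kcnj2, St6gal1 and Ckb lay below theirs. Zranb3, for example, was at 50.7 to 58.9 CPM with zymosan, 14.9 to 18.2 CPM with LPS and 92.0 to 106 CPM in untreated cells. A call, a large log2 difference and lack of overlap between zymosan and LPS samples were conditions for choosing the genes in this paragraph. None of these is therefore a separate result for them. Lack of overlap held for 42.8% of all genes tested.

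The same comparison was made in samples labelled KO, which share no library with the WT comparison. Ern1 mRNA was not lower in them: it was 35.6 to 39.2 CPM in zymosan and 36.6 to 41.8 CPM in LPS samples labelled KO, against 29.5 to 30.7 CPM in zymosan and 27.1 to 29.9 CPM in LPS samples of WT cells. The counts cover whole genes, so single exons cannot be read. Within WT cells the stimuli overlapped for Ern1 (log2 0.08 ± 0.05, edgeR adjusted p = 0.19), and Xbp1 was lower at -0.13 ± 0.05, a call lost with pairs summed (0.23) and without LPS replicate 4 or zymosan replicate 3 or 4 (0.054 to 0.097). In samples labelled KO, 3227 genes (22.7%) were higher with zymosan and 2832 (20%) lower. Of the genes higher in WT, 2447 were also higher there, which is 70.3% of the WT list and 75.8% of the other; of the genes lower in WT, 2114 were lower there (68.1% and 74.6%). Opposite calls were made for 10 and 9 genes. Csf3 (2.33 in WT, 2.38 in samples labelled KO), Il12b (-2.02, -1.89), Thbs4 (-2.61, -2.54) and Cdh1 (1.78, 1.65) had similar log2 differences in each.

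The difference between the genotype labels was tested as an interaction: 90 genes (0.634%) had a higher and 119 (0.839%) a lower log2 value in WT than in samples labelled KO, and 2352 were at an unadjusted p under 0.05. With replicate pairs summed edgeR called 0, with 869 at an unadjusted p under 0.05, and leaving out single libraries gave from 22 and 24 (without LPS replicate 2 labelled KO) to 155 and 224 (without WT zymosan replicate 4). Both counts fell by more than 1.5 times without LPS replicate 1, 3 or 4 or zymosan replicate 1 or 2 of WT, and without LPS replicate 1 or 2 or zymosan replicate 3 or 4 labelled KO. Calhm6, a calcium homeostasis modulator, had 6.62 to 7.56 CPM with zymosan and 29.0 to 36 CPM with LPS in WT cells, against 4.81 to 7.89 and 13.3 to 16.4 CPM in samples labelled KO (difference -0.98 ± 0.15, edgeR adjusted p = 0.0034). Cxcl9 differed by -0.66 ± 0.16, Il27 by -0.54 ± 0.13 and Ccl3, a chemokine for monocytes, by -0.58 ± 0.11. Within WT the Ccl3 call (0.23 ± 0.08) ended with pairs summed (edgeR adjusted p = 0.17) and without LPS replicate 1 or 2 (0.082 and 0.068). Il6, level between stimuli in WT cells, was at 360 to 472 CPM with zymosan and 238 to 325 CPM with LPS in samples labelled KO (log2 0.51 ± 0.09; difference -0.51 ± 0.12, edgeR adjusted p = 0.041). Dock4 (-1.0 ± 0.20) and Kcnn3 (0.88 ± 0.15) had opposite signs in the genotype labels: Dock4 was at -0.40 in WT and 0.60 in samples labelled KO, and Kcnn3 at 0.54 and -0.34. The Dock4 call within WT ended with pairs summed (edgeR adjusted p = 0.11) and without LPS replicate 1 or zymosan replicate 1 or 2 (0.058 to 0.067). Slamf8 (-0.89 ± 0.22) and the complement genes C1qa (-0.62 ± 0.13), C1qb (-0.45) and C1qc (-0.51) also had a lower log2 value in WT. St6gal1 (0.98 ± 0.24), Smpd5 (0.83 ± 0.16), Klhl3 (0.73 ± 0.16), Il1rl1 (0.61 ± 0.14), Ptgs1 (0.53 ± 0.09) and the sterol genes Sc5d (0.42), Sqle (0.36) and Scd2 (0.36) had a higher one. For each of these genes the adjusted p of the difference with pairs summed was 0.84. With all replicates counted, the call of the difference ended on leaving out any 1 of 6 libraries for C1qa, 7 for C1qb, 8 for Il1rl1, 9 for C1qc, Klhl3 and St6gal1, 10 for Cxcl9, Il27 and Il6, and 12 of the 16 for Slamf8, and it held against each removal for Calhm6, Ccl3, Dock4, Kcnn3, Ptgs1, Sc5d, Smpd5 and Sqle.

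**Figure D4:**
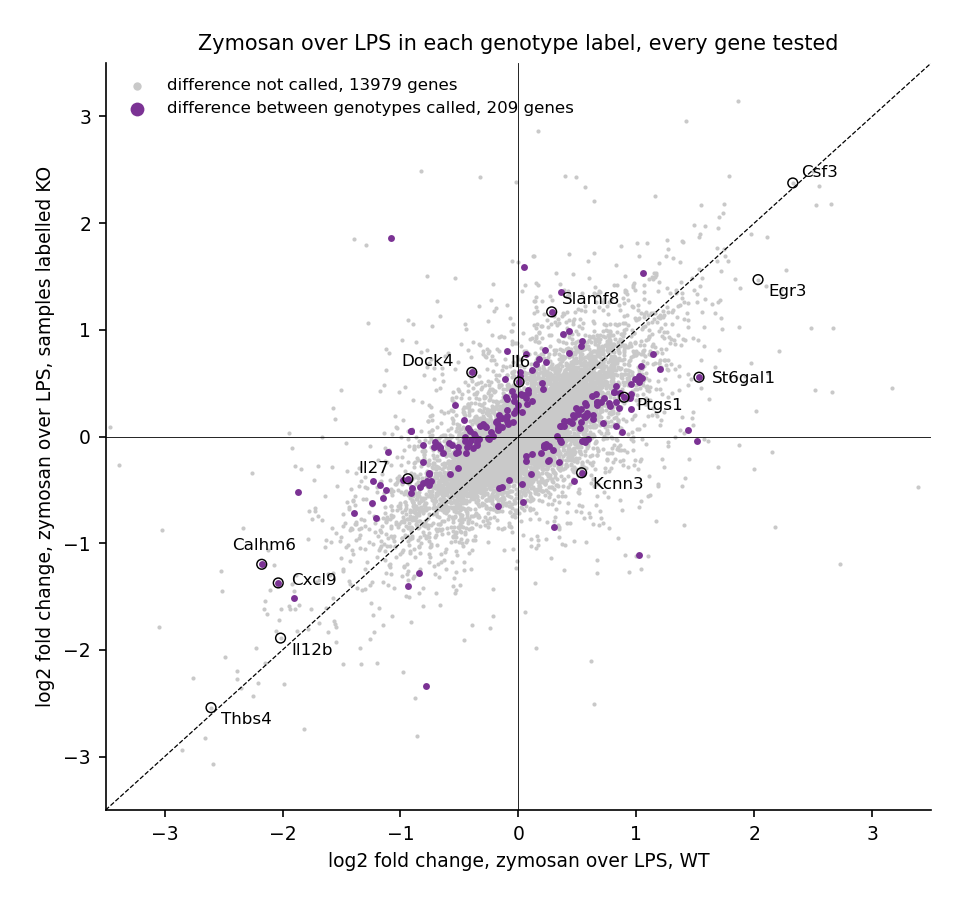
Log2 fold change of zymosan over LPS in WT cells (horizontal) and in samples labelled KO (vertical) for the genes tested, with the 209 genes whose difference was called in purple and equality as a dashed line; 34 genes lie beyond the axes at 3.5 and none of these was called. Csf3, Thbs4 and Il12b lie near the line, Calhm6 and Cxcl9 above it and St6gal1 and Ptgs1 below it.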

How the data were processed

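RNA was measured by mRNA sequencing in 24 samples, 4 in each of 6 groups. The authors deposited whole-number counts per Ensembl gene; their tools, per the submitters' processing notes, included RSEM 1.2.31, Bowtie2 and DESeq2, and the build was mm10; roles and order are not given. Decimals had been foreseen, but the deposited counts were whole and were used unchanged. How reads shared by near-identical genes (Ifit3 and Ifit3b, for example) or by overlapping genes were assigned is not given in the sources used here, so such genes are uncertain. GENCODE M21 (GRCm38) named 37570 identifiers (96.6%).

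Of 38887 genes, 14188 passed filterByExpr. An edgeR 4.0.16 quasi-likelihood model (R 4.3.3, trimmed mean scaling, factors 0.880 to 1.19) had 1 mean per group over all 24 samples, and p-values were Benjamini-Hochberg adjusted over all genes. Fold changes are log2 ± SE. Members and gene lists were chosen with earlier results of these data known. Named genes are a set of cytokine, receptor and enzyme genes, the called members of each list with the largest change, the 12 largest changes each way (mean of at least 5 CPM, no overlap) and the 5 largest genotype differences each way; not all are printed, and other list members serve as examples. On simulated counts for the WT comparison (14188 genes), 54%, 72%, 78% and 100% of genes planted at 1.25-, 1.5-, 2- and 4-fold were recovered, with 8 calls among 13988 unchanged genes. The simulated samples were drawn independently and do not hold the resemblance within replicate pairs. These figures therefore cannot show the error rate in the real samples.

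Alternatives were DESeq2 1.42.0, its scaling, no filter, the compared groups alone, replicate terms, replicate pairs summed or alone, and each library left out.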

Additional observations from a re-analysis of the deposited data

Results flagged for a closer look

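Among the 194 genes checked in both WT groups (388 groups of 4 samples), 13 had 1 sample set apart, its gap to the nearest other, as a ratio to the group's range, being above Dixon's critical value for 4 samples. Chance does this in about 1 in 20 such groups. In zymosan samples these were replicate 1 for Ereg (2.41 CPM, others 1.76 to 1.85; ratio 0.860) and Ero1l (2175 CPM, others 2077 to 2092; 0.847), replicate 2 for Erap1 (97.9 CPM, others at 105 to 3 digits; 0.906) and Isg15 (918 CPM, others 818 to 834; 0.849), and replicate 3 for Gpi1 (1940 CPM, others 2073 to 2097; 0.849) and Itgam (1720 CPM, others 1793 to 1800; 0.903). In LPS samples they were replicate 1 for Il1rl1 (6.20 CPM, others 7.5 to 7.64; 0.898), replicate 2 for Iigp1 (197 CPM, others 234 to 236; 0.939), replicate 3 for Lif (17.0 CPM, others 15.3 to 15.6; 0.850) and Ifngr2 (169 CPM, others 176 to 178; 0.840), and replicate 4 for Socs1 (247 CPM, others 169 to 177; 0.896), Socs3 (1254 CPM, others 1081 to 1104; 0.869) and Keap1 (126 CPM, others 110 to 112; 0.894).

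By the edgeR interaction test the zymosan over LPS difference itself differed between WT cells and samples labelled KO for 209 of the 14188 genes (1.47%), and for 0 with replicate pairs summed. The 21 of these among the named genes, some of which were named for that difference, follow. The log2 difference between the labels was negative for Dock4 (-1.0), Calhm6 (-0.98), Slamf8 (-0.89), Cxcl9 (-0.66), C1qa (-0.62), Ccl3 (-0.58), Il27 (-0.54), Il6 (-0.51), C1qc (-0.51), C1qb (-0.45) and Creb3l1 (-0.39). It was positive for St6gal1 (0.98), Kcnn3 (0.88), Smpd5 (0.83), Klhl3 (0.73), Il1rl1 (0.61), Ptgs1 (0.53), Bub1 (0.50), Sc5d (0.42), Scd2 (0.36) and Sqle (0.36).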

How the results depend on the processing

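In WT, 3481 genes were called higher and 3106 lower. Every alternative kept both counts within 1.5 times except summing replicate pairs (2280 and 1979, and 1969 and 1582 in samples labelled KO); leaving out 1 library gave 3166 to 3336 and 2809 to 2972. The counts of genotype differences (90 and 119) moved most: 0 and 0 with pairs summed, 159 and 298 by DESeq2, 417 and 688 with a replicate block, 523 and 823 with a term for replicate pairs, 749 and 892 from replicates 1 and 2, 210 and 401 from replicates 3 and 4, and 22 to 155 and 24 to 224 on leaving out 1 library. The causes were not tested.

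Of 194 genes examined, 187 to 193 kept direction and call under each tool, scaling, filter, choice of groups or replicate term, 181 with pairs summed (13 calls ended), 185 in each pair of replicates alone, and 189 to 192 on leaving out a WT library. Il6, near 0, became negative by DESeq2 (-0.0160), with its scaling (-0.0170), with the compared groups alone (-0.0005), from replicates 3 and 4 (-0.1727, a call; 0.1698, also a call, from replicates 1 and 2) and without LPS replicate 1 or 2 or zymosan replicate 1 or 2 (-0.0303 to 0.0457 over the 8 removals). Il10 became positive from replicates 1 and 2 (0.0909) and without LPS or zymosan replicate 3 (-0.0638 to 0.0272 over the removals), and Ppbp was -0.0005 from replicates 3 and 4.

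In WT, zymosan and LPS replicates with the same number had correlations of their deviations of -0.041 to 0.115. Those with different numbers had -0.073 to 0.056. In samples labelled KO the values for the same number were 0.032 to 0.088. Such small correlations over all genes cannot settle whether the numbers pair samples. With the replicate block, 3736 genes were called higher and 3405 lower in WT. Few counts limit Ifnb1, Csf2, Fosb and Ido2.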

Other observations

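Genes of cell division, a list not described above, counted 9 higher with zymosan and 3 lower among 20. These are 45% and 15%, against 24.5% and 21.9% of all genes. The median was 0.24, and 6 and 3 were called with replicate pairs summed. Bub1, a kinase of the mitotic checkpoint, was at 16 to 19.2 CPM with zymosan, against 7.94 to 8.67 CPM with LPS and 25.6 to 29.9 CPM in untreated cells (log2 1.05 ± 0.08, edgeR adjusted p = 9.3e-11). Top2a, which untangles DNA before division, was at 33.8 to 46.3 CPM with zymosan, against 22.8 to 25.8 CPM with LPS (log2 0.67 ± 0.10). Both were below the untreated level in all stimulated samples.

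Among 14 antioxidant genes 7 were higher and 2 lower (50% and 14.3%, against 24.5% and 21.9% of all genes), with a median of 0.12. With pairs summed the counts were 2 and 1, and 4 were higher without LPS replicate 2. Slc7a11, the cystine importer, was at 833 to 1029 CPM with zymosan and 645 to 749 CPM with LPS (log2 0.44 ± 0.10), and Keap1, which holds NRF2 back, was at 72.4 to 78.2 CPM with zymosan and 110 to 126 CPM with LPS (log2 -0.59 ± 0.04). Nfe2l2, the NRF2 gene itself, had a small difference (0.19 ± 0.07), and its call ended with pairs summed (edgeR adjusted p = 0.20) and without LPS replicate 1 or 2 or zymosan replicate 4 (0.059 to 0.064).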
